A study of Mus musculus with 2 samples.

Results

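Ectodysplasin A (Eda) is a ligand of the tumor necrosis factor superfamily, and this report describes its gene with those of its receptors Edar and Eda2r and of the adaptor Edaradd. These 4 genes, of the 32285 in the count tables, were chosen by their symbols after the Eda level in the knockout library was already known. The levels and ratios below are therefore a description and carry no test. The counts came from 2 single-cell libraries of male C57BL6 mouse liver, 1 for each genotype, made with a droplet kit that tags the 3′ end of polyadenylated RNA. The WT library held hepatocytes and nonparenchymal cells mixed 1 to 1 from control liver. The N-LKO library came from mice in which albumin-Cre, active in hepatocytes, had deleted loxP-flanked NgBR (Nus1), and 0.25 parts of tumor cells had been added to the same mix. Both groups ate chow for 8 weeks and then a Western diet (WD) for 16 weeks, whereas the titles of the samples call it HFD. Genotype, tumor tissue and library cannot be told apart, the number of mice behind each library is not given in the sources used here, and no result has a replicate check.

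Eda is a membrane-bound trimer that furin-type proteases cut loose from the cell. Its EDA-A1 form binds EDAR, which signals through the adaptor EDARADD to NF-κB and is known for hair, tooth and sweat gland formation. Its EDA-A2 form binds EDA2R (also called XEDAR), a receptor encoded by a p53 target gene. EDA is also made by the liver and has been studied as a secreted factor in fatty liver disease.

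The annotation (GENCODE M21, build GRCm38) places Eda (ENSMUSG00000059327) on the forward strand of chromosome X from 99975606 to 100400762, a span of 425 kb. Eda2r (ENSMUSG00000034457) also lies on chromosome X, on the reverse strand from 97333840 to 97377216. Edar (ENSMUSG00000003227) spans 58600789 to 58675654 on the reverse strand of chromosome 10, and Edaradd (ENSMUSG00000095105) spans 12472632 to 12520438 on the reverse strand of chromosome 13. The labels name mm9 as the build of the counts, so these positions serve only to describe the genes.

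The choice between both receptors rests on 6 coding bases at the end of the second-last coding exon of Eda, and these are shown because the counts cannot see them. The stretch runs from 24 bases before to 24 bases after the alternative donor site, on the forward strand of chromosome X, with the 6 bases in capitals. The transcript with them ends that exon at 100395149 and codes for 391 residues, and the transcript without them ends it at 100395143 and codes for 386 residues. Another annotated transcript, ENSMUST00000113780, ends it at 100395107 and is not shown. All continue at 100396905 in the last exon. The sequences were copied from the GENCODE M21 transcripts.
EDA-A1 type, ENSMUST00000113779: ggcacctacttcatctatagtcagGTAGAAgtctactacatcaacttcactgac
EDA-A2 type, ENSMUST00000113778: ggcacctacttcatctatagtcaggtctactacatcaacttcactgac
The 6 bases account for 2 of the residues by which the transcripts differ, and the place of the rest is not given here. The 6 bases lie 3856 bases from the 3′ end of the longer transcript, whose last exon starts at the same base as that of the other form. A UMI (unique molecular identifier, 1 captured transcript) from that end cannot be assigned to either form, so every Eda value below is a sum over forms, with the receptor they would bind unknown.

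The libraries held 85522287 UMIs (WT) and 87575064 UMIs (N-LKO). Filters left 18435 cells of WT (median depth 1400 UMIs) and 19850 of N-LKO (median depth 1454 UMIs), and 122 of the kept barcodes occurred in both libraries. Cells were clustered without the EDA pathway genes, and 21 of 23 clusters were named from markers, giving 14 cell classes. Levels are counts per 1000000 UMIs of a class (CPM), with exact 95% Poisson intervals in parentheses. Ratios divide N-LKO by WT on the log2 scale, after 0.5 UMI was put on both sums. All intervals cover counting error only. Xist, which marks a second X chromosome, had 10 UMIs in each library, while the Y-linked Ddx3y had 7052 in WT and 6430 in N-LKO, so the X-linked Eda and Eda2r were read from male cells in both. Nus1, the targeted gene, stood at 73.0 CPM (WT) and 33.7 CPM (N-LKO) hepatocyte-like cells. The loxP sites flank exon 1 of Nus1, away from the 3′ end that was counted, so this level does not check the deletion.

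Eda, the ligand, was the member with most counts. Over all barcodes, Eda had 1626 UMIs in WT and 9966 in N-LKO. In hepatocyte-like cells Eda stood at 38.2 CPM (35.3 to 41.2, 642 UMIs in 9965 cells) in WT. It stood at 381 CPM (368 to 394, 3288 UMIs in 4154 cells) in N-LKO, so that the log2 ratio was 3.32 (3.20 to 3.44) or 9.97-fold. Among the 10613 genes with at least 5 CPM in either library, 22.1% were at least 2-fold higher in N-LKO hepatocyte-like cells, and the median log2 ratio of all of them was 0.39. Eda had been chosen for this difference, so its place among those genes is not a result.

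The pooled ratio compared different clusters. In WT, 8196 of the hepatocyte-like cells were in cluster 0 and 325 in cluster 17. In N-LKO, 2003 were in cluster 5 and 2057 in cluster 6, a cluster with no WT cell. Clusters 17 and 6 were rich in RNA that stays in the nucleus. Malat1, a nuclear long noncoding RNA, took 3.57% of the UMIs of cluster 17 and 1.99% of those of cluster 6, against 0.883% in cluster 0 and 0.459% in cluster 5. Neat1, another nuclear RNA, stood at 3144 CPM in cluster 17 and 3460 CPM in cluster 6, and at 540 and 359 CPM in clusters 0 and 5. Such cells made up 3.26% of the hepatocyte-like cells of WT and 49.5% of those of N-LKO.

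The Malat1-rich clusters were set against each other, and so were the largest other clusters. Eda was higher in N-LKO in both pairs, by less than in the pool. In the Malat1-rich clusters it stood at 153 CPM (125 to 186, 102 UMIs) in WT cluster 17 and at 718 CPM (692 to 745, 2868 UMIs) in N-LKO cluster 6. That is a log2 ratio of 2.22 (1.94 to 2.53), or 4.66-fold. In this pair 17.7% of the genes with at least 5 CPM were at least 2-fold higher in N-LKO. In the largest other clusters Eda stood at 35.8 CPM (32.7 to 39.0, 510 UMIs) in WT cluster 0 and at 91.5 CPM (82.9 to 101, 410 UMIs) in N-LKO cluster 5. The log2 ratio there was 1.36 (1.17 to 1.55), or 2.56-fold, and 6.6% of genes were at least 2-fold higher in N-LKO. Barcodes under 500 UMIs, the background described further on, stood at 10.5 CPM (8.43 to 13.01) in WT and 73.1 CPM (66.5 to 80.2) in N-LKO. Cluster 5 was thus only a little above its background, and the part of free RNA in this ratio was not tested. The leading genes of cluster 0 included Slco1a1 and Mup12, and those of cluster 5 Saa1 and Saa2, so this pair also differs in kind. The 97 WT cells of cluster 5 stood at 44.55 CPM (20.4 to 84.6, 9 UMIs). The 70 N-LKO cells of cluster 0 stood at 81.1 CPM (38.89 to 149, 10 UMIs), an interval that includes the N-LKO background. Both intervals overlap that of the other library in the same cluster. WT clusters 9 and 20, with less Malat1 RNA, stood at 8.25 and 38.1 CPM of Eda, and cluster 9 was below the level of the other WT hepatocyte-like clusters. The pairing by Malat1 was chosen after the data were seen.

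**Figure D1:**
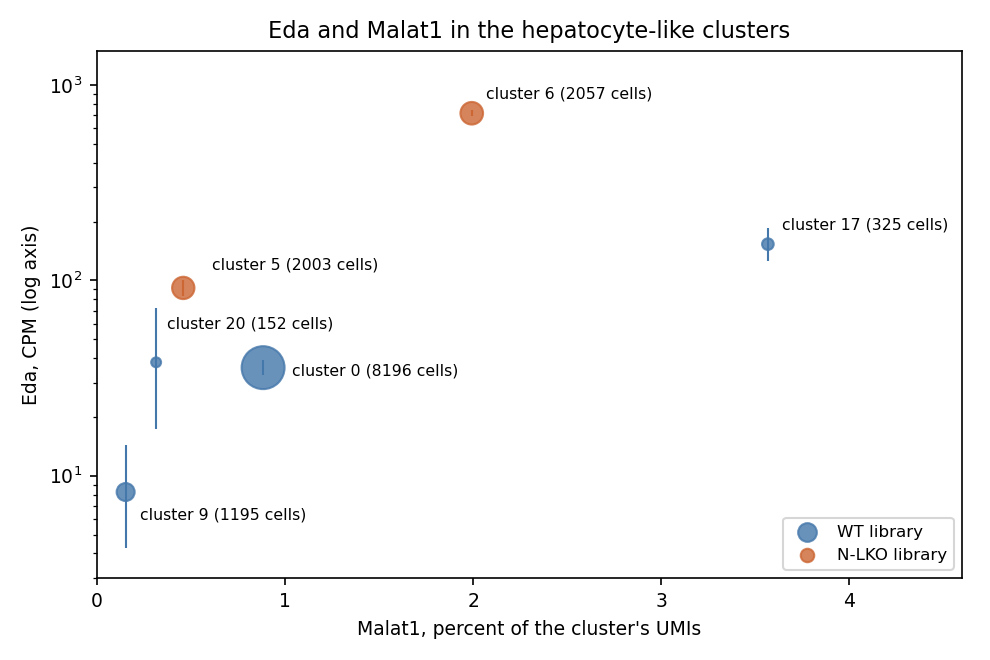
Eda level in CPM on a log axis against Malat1 as a percent of UMIs, for the 6 hepatocyte-like clusters, each in the library that holds most of its cells. Point area grows with the number of cells and bars are 95% Poisson intervals; cluster 6 of N-LKO stands at 718 CPM and WT cluster 17, with more Malat1, at 153 CPM.

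The name of cluster 6 rests on few markers. It scored 0.245 for the hepatocyte list, with 3 markers raised 2-fold, where 0.2 and 3 were the limits. Its 10 hepatocyte markers summed to 12500 CPM, below the 21390 CPM of N-LKO barcodes with under 500 UMIs, which stand here for free RNA. Of these 10 markers, Cps1 (2485 CPM) and Hnf4a (255 CPM) were above those barcodes (932 and 87.6 CPM). Alb was below them, at 4104 against 8727 CPM, and the other markers are not given singly here. Of the marker lists of 14 other cell types, 12 were below those barcodes, such as the endothelial list at 232 against 607 CPM. The cholangiocyte list, at 315 against 220 CPM, and the plasmacytoid dendritic list, at 390 against 339 CPM, were above them. In 3 of 7 other choices of filter or clustering, the large N-LKO cluster with the highest Eda level stayed unnamed, and the hepatocyte-like ratio was then close to that of clusters 0 and 5. WT cluster 17 rested on 3 raised markers as well.

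Eda was a leading gene of cluster 6 although it had no part in the clustering. By fold over the other clusters, the 10 leading genes were Tmem45b, Eda, Pdzrn3, Rgs7, Grip1, Col4a3, Gm44507, Sybu, Gm7967 and Ptges. Col4a3 encodes a basement membrane collagen chain and Ptges a prostaglandin E synthase. Eda is 1 of the 10 by the same cells that were clustered, so this is a description of the cluster.

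Single cells showed how the Eda counts were spread. Of the 2057 cells of cluster 6, 1215 (59.1%) held an Eda UMI, 373 held at least 3 and the highest count was 20. Of the 325 cells of WT cluster 17, 70 (21.5%) held an Eda UMI and the highest held 5. Thinned to 1000 UMIs per cell, which left out no cell, the shares were 43.1% (40.9 to 45.3, exact binomial interval) in cluster 6 and 13.8% (10.3 to 18.1) in cluster 17. Over all hepatocyte-like cells the thinned shares were 25.2% (23.8 to 26.5) in N-LKO and 3.47% (3.12 to 3.85) in WT. The tenth of cells with most Eda UMIs held 42.6% of those of cluster 6. At the same depth 2.94% of N-LKO and 0.848% of WT macrophage-like cells, whose Eda level was at or below the background described further on, held an Eda UMI. Median UMIs per cell before thinning were 1520 (N-LKO) and 1394 (WT) in macrophage-like and 1790 and 1519 in hepatocyte-like cells.

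Within clusters, cells were ranked by Malat1 share and split into 3 equal parts. In N-LKO cluster 5 Eda stood at 57.0 CPM (45.0 to 71.3) in the cells with least Malat1, 77.4 CPM (64.0 to 92.9) in the middle part and 133 CPM (116 to 152) in the cells with most. Only the last of these had an interval above the 73.1 CPM of N-LKO barcodes under 500 UMIs. In WT cluster 0 the same parts stood at 22.7, 36.1 and 46.5 CPM. Both clusters thus had their highest Eda level where nuclear RNA was most abundant. In cluster 6 the parts stood at 604, 743 and 787 CPM, the first below the others, and in cluster 17 at 154, 145 and 161 CPM, with overlapping intervals. Split by the ratio of pericentral to periportal gene UMIs, which places a hepatocyte along the liver lobule, the parts of cluster 0 stood at 33.4, 36.8 and 37.6 CPM, again with overlapping intervals. Cluster 6 stood at 814 CPM (768 to 861) in its most periportal cells and 589 CPM (548 to 633) in its most pericentral. WT cluster 17 ran the other way, at 110 CPM (73.4 to 160) and 262 CPM (197 to 342), on 28 and 54 UMIs.

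Eda is a long gene, and the ratio of long genes differed between these comparisons. The 506 expressed genes with a span from 0.5 to 2 times that of Eda had a median log2 ratio of 1.07 in hepatocyte-like cells, with quartiles of 0.63 and 1.55. In the Malat1-rich pair their median was 0.41 (quartiles -0.02 and 1.31), and in the pair of clusters 0 and 5 it was -0.12 (-0.39 and 0.20), below the 0.08 of all genes. Since Eda was chosen for its level in N-LKO, its place among these genes is not a result. The part that nuclear RNA and span play in the Eda ratio was not tested.

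**Figure D2:**
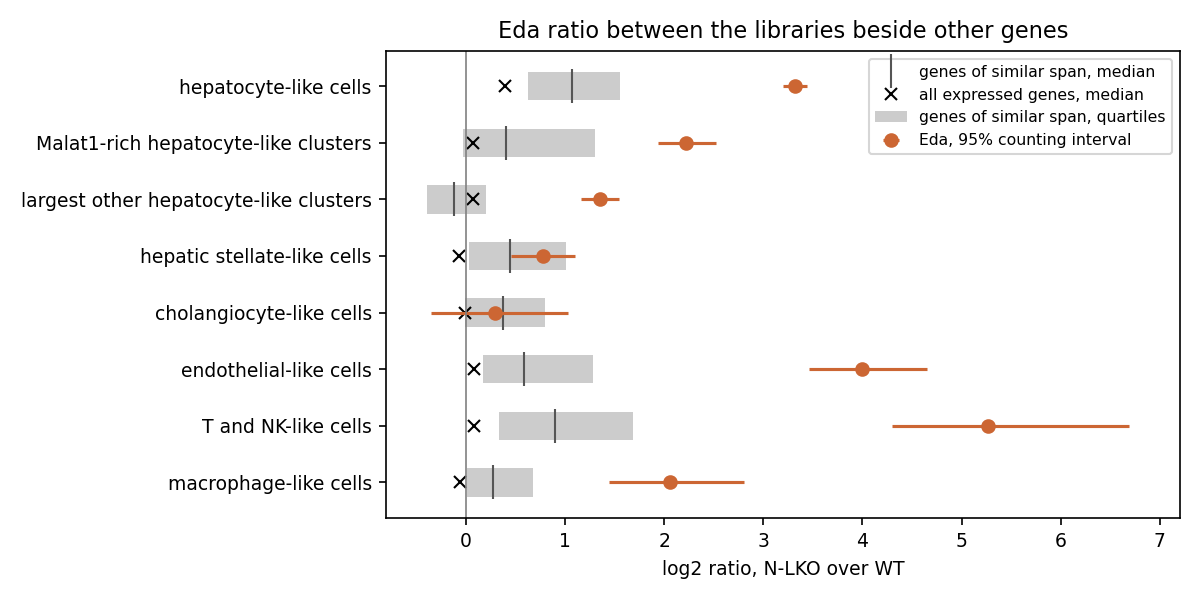
Log2 ratio of N-LKO over WT for Eda (points, 95% counting intervals) in 8 comparisons, beside the median of all expressed genes (crosses) and the median and quartiles of genes of similar span (ticks and grey bars). The Eda ratio runs from 0.29 in cholangiocyte-like to 5.26 in T and NK-like cells, and as Eda was chosen for its N-LKO level its place beside the bars is a description.

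Outside hepatocytes, WT cells gave the clearest picture of other sources. In WT barcodes under 500 UMIs Eda stood at 10.5 CPM (8.43 to 13.01), and 3 of the 13 other classes had intervals above that level. WT hepatic stellate-like cells, the retinoid-storing pericytes of the liver, stood at 90.2 CPM (76.4 to 106, 151 UMIs in 905 cells). Cholangiocyte-like cells, which line bile ducts, stood at 77.8 CPM (49.9 to 116, 24 UMIs), and dendritic-like cells at 53.3 CPM (31.6 to 84.2, 18 UMIs). WT endothelial-like cells at 10.9 CPM, macrophage-like cells at 7.95 CPM and T and NK-like cells at 5.45 CPM had intervals that include the background level. The WT stellate-like level was above the 38.2 CPM of WT hepatocyte-like cells, with intervals apart.

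The 3 classes above background in WT had smaller ratios than hepatocyte-like cells. Stellate-like cells stood at 155 CPM (133 to 180, 175 UMIs in 634 cells) in N-LKO, for a log2 ratio of 0.78 (0.46 to 1.11), where 10.6% of genes were at least 2-fold higher. Cholangiocyte-like cells stood at 96.8 CPM (77.9 to 119), a log2 ratio of 0.29 (-0.35 to 1.03), where 13.3% of genes were. Dendritic-like cells stood at 55.3 CPM (40.8 to 73.3), a log2 ratio of 0.03 (-0.75 to 0.92). The cholangiocyte-like and dendritic-like intervals include both no difference and an increase close to 2-fold.

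The N-LKO background was itself high in Eda. Barcodes under 500 UMIs stood at 73.1 CPM (66.5 to 80.2, 446 UMIs), 6.91 times the WT level. In 8 of the 13 other N-LKO classes the interval was above that level. Among these, the cholangiocyte-like (77.9 to 119) and plasmacytoid dendritic-like (78.15 to 124) intervals overlap the interval of the background itself. T and NK-like cells stood at 224 CPM (202 to 248, 371 UMIs), against 7 UMIs in WT, a log2 ratio of 5.26 (4.30 to 6.68). Endothelial-like cells stood at 178 CPM (164 to 192, 616 UMIs), a log2 ratio of 4.0 (3.46 to 4.65). At least 2-fold higher in N-LKO were 14.9% of genes in T and NK-like cells and 11.9% in endothelial-like cells. Macrophage-like cells stood at 33.9 CPM (29.5 to 38.6) and monocyte-like cells at 51.7 CPM (43.7 to 60.7), both below the N-LKO background, while the macrophage-like log2 ratio was 2.06 (1.44 to 2.81) with 4.47% of genes at least 2-fold higher.

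**Figure D3:**
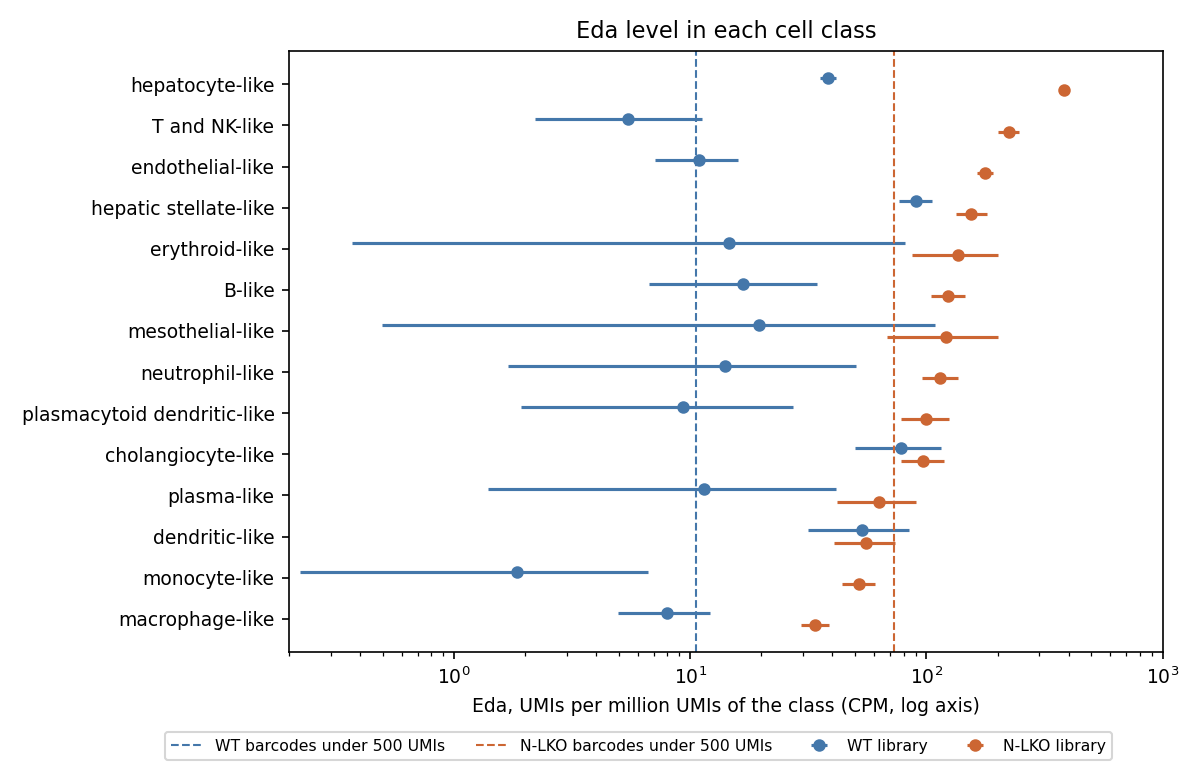
Eda level in CPM on a log axis for 14 cell classes in the WT and N-LKO libraries, with 95% Poisson intervals; dashed lines mark the barcodes under 500 UMIs, at 10.5 CPM (WT) and 73.1 CPM (N-LKO). In WT the stellate-like, cholangiocyte-like, dendritic-like and hepatocyte-like intervals lie above the dashed line, and in N-LKO the hepatocyte-like level is the highest at 381 CPM.

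The Eda of these N-LKO classes was set beside the 9 other leading genes of cluster 6. Eda and these 9 genes were all picked by their fold over the other clusters in these same cells. Low percentages elsewhere were thus partly fixed by that choice, and their likeness is a description. In T and NK-like cells Eda was at 31.2% of its level in cluster 6, and the 9 other leading genes were at 17.0% to 31.8% of theirs, with a median of 25.6%. In endothelial-like cells Eda was at 24.7% and the others at 19.8% to 25.9%. In macrophage-like cells Eda was at 4.71% and the others at 4.07% to 5.19%. In 11 of the 13 classes Eda lay within the range of the other 9, and it was above that range in dendritic-like cells (7.70% against at most 6.04%) and monocyte-like cells (7.197% against at most 6.71%). Among the 11, some ranges were wide, so that lying within them says little. They were 6.26% to 119% in mesothelial-like, 4.26% to 50.9% in cholangiocyte-like and 15.8% to 59.6% in stellate-like cells. Cps1, a urea cycle enzyme of hepatocytes, was at 38.1% of its cluster 6 level in T and NK-like cells and 35.6% in endothelial-like cells. Alb, which encodes albumin and is low in cluster 6, was at 105% and 96.4%.

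**Figure D4:**
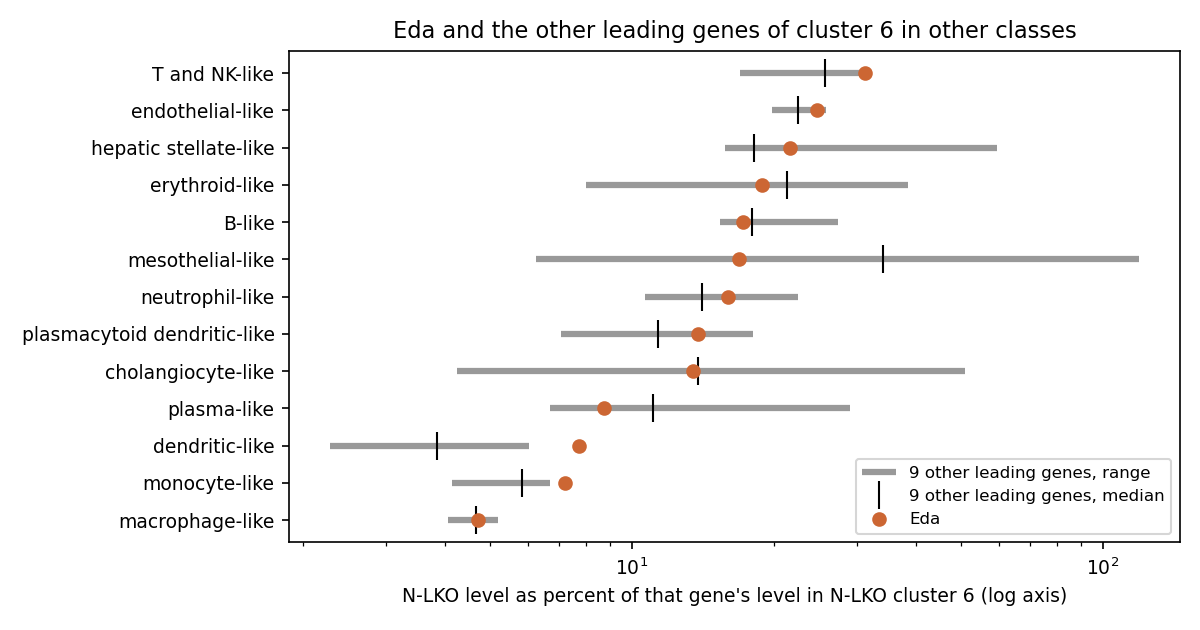
Level of Eda (points) and of the 9 other leading genes of N-LKO cluster 6 (grey bars for the range, ticks for the median) in 13 other classes of the N-LKO library, as a percent on a log axis of the level of the same gene in cluster 6. Eda lies within the grey range in 11 classes, from 31.2% in T and NK-like cells to 4.71% in macrophage-like cells. All these genes were picked by their fold over the other clusters in the same cells, so this is a description.

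Cells with and without Eda were then compared within a class. The 196 N-LKO T and NK-like cells with an Eda UMI held the 9 other leading genes at 1071 CPM in sum and Cps1 at 1734 CPM, against 273 and 739 CPM in the 983 without. Their T and NK markers summed to 1056 CPM, against 1797 CPM in cells without Eda, and Alb stood at 4018 against 4406 CPM. Endothelial-like cells of N-LKO showed the same order, with 1009 against 222 CPM for the 9 genes, 3486 against 5778 CPM for their own markers and 3482 against 4077 CPM for Alb. The N-LKO cells with Eda were also deeper. Their median depth was 1530 against 1202 UMIs in T and NK-like, 1748 against 1222 in endothelial-like and 1918 against 1542 in stellate-like cells. N-LKO stellate-like cells with Eda held 963 CPM of the 9 genes, against 342 CPM without. Their Cps1 (1346 against 456 CPM) and own markers (4079 against 5777 CPM) also kept that order, but their Alb was higher, at 3500 against 3063 CPM. N-LKO cholangiocyte-like cells with Eda held 633 against 362 CPM of the 9 genes, while their own markers were at 8665 against 8809 CPM. Of the WT classes, endothelial-like cells had the same order of the 9 genes on few counts, at 128 against 22.2 CPM (5 and 52 UMIs). Their Cps1 (2917 against 670 CPM) and own markers (5451 against 7882 CPM) also kept that order, but Alb was higher with Eda, at 6142 against 6002 CPM. WT cholangiocyte-like cells held 268 against 175 CPM of the 9 genes (9 and 48 UMIs) and own markers at 7979 against 10060 CPM. Their Alb was higher with Eda as well, at 8336 against 6384 CPM. Only 6 WT T and NK-like and 6 WT B-like cells held an Eda UMI. Those T and NK-like cells held no UMI of the 9 genes, against 16 in cells without Eda. Those B-like cells had own markers at 5124 against 3281 CPM. WT stellate-like cells differed in the order of the 9 genes and of their own markers. Their 119 cells with an Eda UMI held the 9 genes at 93.4 CPM, against 133 CPM in the 786 without, Cps1 at 391 against 357 CPM, and stellate markers at 10370 against 9415 CPM. The part of free RNA or of a second cell in the droplet in the Eda of these N-LKO classes was not tested.

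Receptors were scarce beside the ligand. Edar, the receptor of EDA-A1, had 8 UMIs in all WT barcodes and 16 in all N-LKO barcodes. In kept cells 3 UMIs were seen in WT, all in hepatocyte-like cells, and 6 in N-LKO, with no more than 1 in any class. In 13 of 14 WT classes and 8 of 14 N-LKO classes Edar had no UMI. The largest of these, N-LKO macrophage-like cells with 6558450 UMIs, allows up to 0.457 CPM by the 3 counts that a count of 0 allows. Barcodes under 500 UMIs held none in WT, which allows up to 0.367 CPM, and 2 in N-LKO, so the 0.178 CPM of WT hepatocyte-like cells is under what the background could hold.

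Eda2r, the receptor of EDA-A2, had 161 UMIs in WT and 311 in N-LKO over all barcodes. Its background was 1.71 CPM (14 UMIs) in WT and 4.26 CPM (26 UMIs) in N-LKO. In endothelial-like cells it stood above that in both libraries, at 9.22 CPM (5.78 to 13.96, 22 UMIs) in WT and 8.65 CPM (5.84 to 12.4, 30 UMIs) in N-LKO, with a log2 ratio of -0.10 (-0.93 to 0.77). The cycling endothelial-like cluster, led by mitosis genes such as Cenpf and Top2a, held 6 UMIs in 47 WT cells (79.7 CPM) and 5 UMIs in 95 N-LKO cells (33.1 CPM). Mesothelial-like cells of N-LKO, from the liver surface, stood at 40.4 CPM (13.1 to 94.4) on 5 UMIs, and 34 WT cells held 1 UMI. WT stellate-like cells stood at 6.57 CPM (3.28 to 11.7, 11 UMIs), and those of N-LKO at 4.43 CPM (1.44 to 10.3, 5 UMIs), an interval that includes the N-LKO background. In hepatocyte-like cells Eda2r stood at 1.67 CPM (28 UMIs) in WT and 5.56 CPM (48 UMIs) in N-LKO, for a log2 ratio of 1.73 (1.04 to 2.47), and the interval of each level includes the background of its library, where the log2 ratio was 1.29 (0.32 to 2.37). In the Malat1-rich pair its log2 ratio was 0.49 (-1.004 to 3.04), on 3 and 29 UMIs, and in the pair of clusters 0 and 5 it was 1.45 (0.46 to 2.43), on 21 and 18 UMIs.

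Edaradd, the adaptor that EDAR needs to signal, had 70 UMIs in WT and 153 in N-LKO over all barcodes, with a background of 0.367 and 0.820 CPM. In T and NK-like cells it stood at 5.45 CPM (2.19 to 11.2, 7 UMIs) in WT and 9.65 CPM (5.52 to 15.7, 16 UMIs) in N-LKO, for a log2 ratio of 0.77 (-0.54 to 2.35). In endothelial-like cells it stood at 2.93 CPM (7 UMIs) and 4.33 CPM (15 UMIs), and in B-like cells at 7.16 CPM (3 UMIs) and 4.39 CPM (5 UMIs). The intervals of these 3 classes lay above the background level in both libraries. That level rests on 3 UMIs in WT and 5 in N-LKO, and its own N-LKO interval (0.266 to 1.91) overlaps the N-LKO B-like interval (1.43 to 10.2). Stellate-like cells of WT (2.39 CPM, 4 UMIs) and monocyte-like cells of N-LKO (2.43 CPM, 7 UMIs) were above it in 1 library only. In hepatocyte-like cells 3 UMIs were counted in WT and 1 in N-LKO. No cell held both Edaradd and Edar. An Eda and an Eda2r UMI were found together in 3 WT and 28 N-LKO cells, of 69 and 141 cells with Eda2r.

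**Figure D5:**
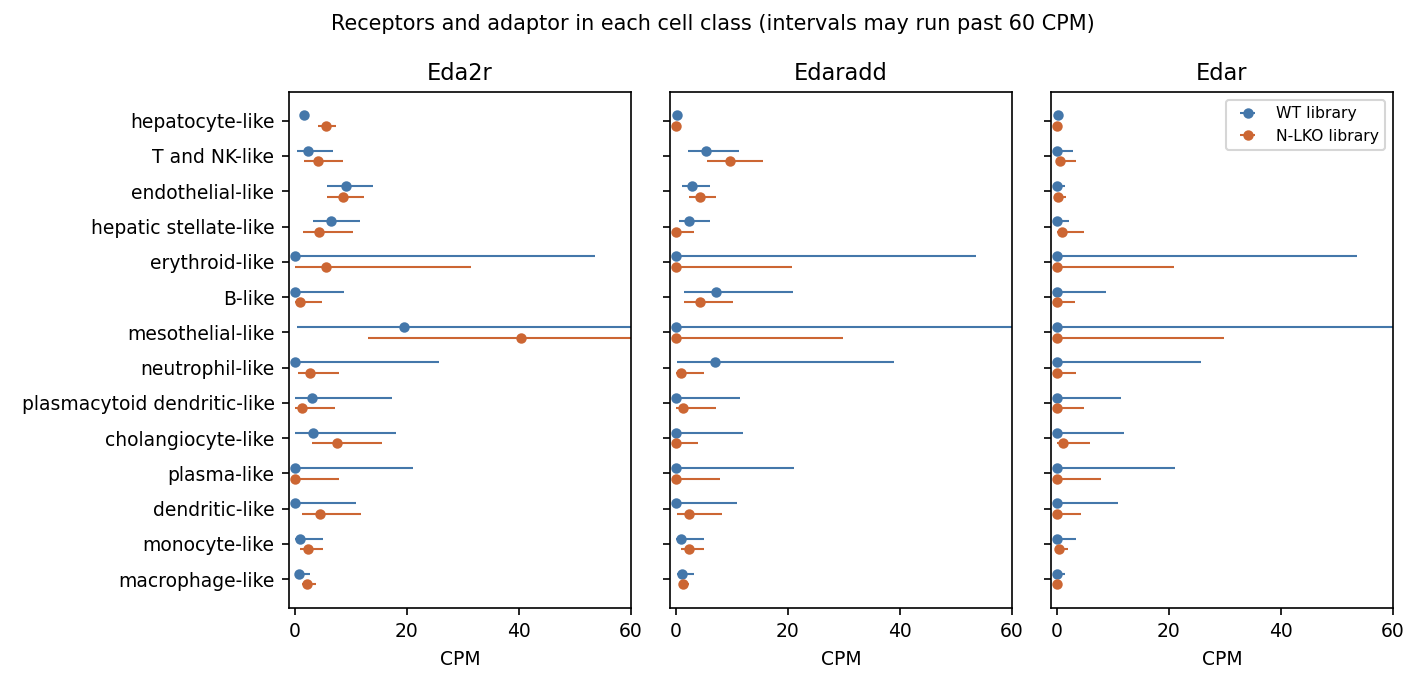
Levels of Eda2r, Edaradd and Edar in CPM for 14 cell classes in both libraries, with 95% Poisson intervals drawn up to 60 CPM. Eda2r is above background in endothelial-like cells of both libraries (9.22 and 8.65 CPM), Edaradd is highest among classes with 7 or more UMIs in T and NK-like cells, and Edar has no more than 3 UMIs in any class.

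The wider pathway was read in hepatocyte-like cells from gene lists. Furin and the related proteases Pcsk5, Pcsk6 and Pcsk7, which can cut proproteins at furin-type sites, were all expressed, and 2 of the 4 were at least 2-fold higher in N-LKO, against 22.1% of all genes. Pcsk5 stood at 50 CPM in WT but 205 CPM in N-LKO (log2 ratio 2.04, 1.92 to 2.16), while Furin stood at 54.1 and 53.1 CPM (-0.03, -0.19 to 0.14). The Pcsk5 log2 ratio was 0.82 (0.57 to 1.09) in the Malat1-rich pair and 0.70 (0.51 to 0.89) in clusters 0 and 5, and in these pairs none of the 4 reached 2-fold, against 17.7% and 6.6% of all genes. Pcsk5, with a span of 405 kb, is also a long gene.

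Of 18 signalling genes downstream of the receptors, 17 were expressed in hepatocyte-like cells and 8 (47.1%, against 22.1% of all genes) were at least 2-fold higher in N-LKO, with none 2-fold lower and a median log2 ratio of 0.62. In the Malat1-rich pair 3 of 17 were, the same share as the 17.7% of all genes, and in clusters 0 and 5 2 of 15 were, against 6.6%. Map3k14, the kinase NIK of the noncanonical NF-κB route, had the highest ratio, at 3.63 CPM (WT) and 19.9 CPM (N-LKO) (2.45, 2.03 to 2.90), and its log2 ratio was 1.68 (0.63 to 3.27) and 1.58 (0.96 to 2.20) in both cluster pairs. Rela, the p65 subunit of canonical NF-κB, stood at 21.4 and 23.7 CPM (0.15, -0.10 to 0.40). Of 6 inhibitors of the pathway, 5 were expressed and 1 was 2-fold higher, a share close to the 22.1% of all genes. That was Tnfaip3, which encodes the NF-κB inhibitor A20, at 6.12 CPM (WT) and 18.9 CPM (N-LKO) (1.62, 1.26 to 1.995). Of 11 genes known as EDA targets in skin appendages, such as Shh and Dkk4, none reached 5 CPM in hepatocyte-like cells of either library. In the Malat1-rich pair only Ltb did, at 7.01 CPM (28 UMIs) in N-LKO cluster 6 and 0 UMIs in WT. Ltb stood at 107 CPM in N-LKO T and NK-like cells, and the part of free RNA was not tested. In clusters 0 and 5 only Ccn2 did, at 3.23 and 5.36 CPM (0.75, -0.04 to 1.47).

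Lists that touch EDA in the liver were read the same way. Of 9 genes of PPAR gamma and steatosis, 8 were expressed and 4 were at least 2-fold higher in N-LKO, against 22.1% of all genes, with a median log2 ratio of 1.37. In the Malat1-rich pair 3 of 9 were, against 17.7%, and in clusters 0 and 5 3 of 8, against 6.6%. Pparg, a lipid-storage transcription factor, stood at 21.5 CPM (WT) and 90.3 CPM (N-LKO) (2.07, 1.89 to 2.26), and at a log2 ratio of 0.92 and 0.46 in the Malat1-rich pair and in clusters 0 and 5. Plin2, which coats lipid droplets, stood at 306 and 312 CPM (0.03, -0.04 to 0.10), but was lower in N-LKO in the Malat1-rich pair (-0.66, -0.87 to -0.45) and higher in clusters 0 and 5 (0.51, 0.43 to 0.59). Of 9 p53 targets other than Eda2r, 7 were expressed and 3 were 2-fold higher, against 22.1% of all genes. Cdkn1a, which encodes the cell cycle inhibitor p21, stood at 18.3 CPM (WT) and 105 CPM (N-LKO) (2.52, 2.33 to 2.71), with log2 ratios of 1.04 in the Malat1-rich pair and 3.32 in clusters 0 and 5. Trp53inp1 stood at 164 and 130 CPM (-0.33, -0.43 to -0.23), with -2.02 and -0.42 in both pairs. In the Malat1-rich pair 2 of 7 expressed p53 targets were 2-fold higher, against 17.7% of all genes, and 1 was 2-fold lower. In clusters 0 and 5 4 of 8 were 2-fold higher, against 6.6%, while Eda2r in cluster 5 (4.02 CPM) was not above its background.

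The genes whose level followed Eda most closely across 26 pairs of class and library with at least 50 cells were Pcsk5 (Pearson r of log2(CPM + 1) 0.88), Gm44507 (0.87), Dcaf6 (0.86), Chsy3 (0.85) and Adcy9 (0.85). For Eda2r, Zfp354c (0.82) and Uggt2 (0.81) came first, and for Edaradd Klra7 (0.79), a natural killer cell receptor, and Gm16153 (0.74). The pairs share a library, and so its depth and its free RNA, and Eda2r and Edaradd rest on 219 and 106 UMIs. The protein-coding neighbours of Eda on chromosome X were scarce in hepatocyte-like cells. Tmem28, 127 kb before it, stood at 3.63 CPM (WT) and 4.63 CPM (N-LKO). Awat2, a wax ester synthase gene 1.46 kb after it, stood at 1.90 and 6.84 CPM.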

How the data were processed

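The deposited matrices hold raw UMI counts of genes in barcodes, which the authors made with Cell Ranger; the headers give release 7.1.0. The labels name mm9 as the genome build, and intron counting is not given in the sources used here. Of 32285 gene identifiers, 32158 matched GENCODE M21. The 4 members, the marker and gene lists and the tests were chosen with earlier results of these data known.

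Barcodes with at least 1000 UMIs, 400 genes and at most 30% mitochondrial UMIs were kept. Scrublet in scanpy 1.11.5, at a common score of 0.25 chosen after the data were seen, removed 1723 of 20158 WT and 2364 of 22214 N-LKO barcodes. Both libraries were clustered together on 2000 variable genes, leaving out 47 EDA pathway genes, with 30 principal components, 20 neighbors and leidenalg 0.10.2 at a resolution of 0.3, the components and resolution following the study. The cell annotation of the study was not used here, so class names are rebuilt, with scoring limits set after the data were seen. A cluster took the best-scoring of 16 marker lists at a score of at least 0.2 with 3 markers raised 2-fold, in the library with more of its cells, and 2 clusters with 2 rival names were called mixed. Clusters whose Malat1 share was over 2 times the median of hepatocyte-like clusters (0.671%) were called Malat1-rich.

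UMIs were summed per class and library. With 1 library per group no p-value was computed, and a gene counted as higher in N-LKO when its ratio was at least 2-fold. CPM carries exact Poisson, ratios exact conditional binomial and shares exact Clopper-Pearson intervals (95%, counting error only), and the ratio step was tested on simulated data. Barcodes under 500 UMIs served as background. They were not tested for being empty, and barcodes in the files start at 326 UMIs in WT and 377 in N-LKO. Named genes were the members, the 2 highest and 2 lowest expressed genes of a list by ratio, the 5 genes most like a member with at least 50 UMIs, and the neighbours of Eda. Only some of these are printed, and genes of cluster 6 were named after their values were seen. The alternatives changed the filters, doublets, clustering, background and scale.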

Additional observations from a re-analysis of the deposited data

Results flagged for a closer look

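Data outside the comparisons also held Eda. The 56623 N-LKO barcodes with 500 or more UMIs that were set aside by the filters stood at 84.2 CPM (81.6 to 86.8, 4065 UMIs), against 12.9 CPM (11.9 to 13.9, 621 UMIs) in 63210 such WT barcodes. The 2 clusters with markers of more than 1 cell type stood at 25.7 CPM in N-LKO (85 UMIs in 2025 cells) and 8.85 CPM in WT (12 UMIs in 840 cells). The cause of neither difference was tested.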

How the results depend on the processing

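The Eda log2 ratio in hepatocyte-like cells was above 0 under every alternative tried, but its size depended on which clusters were pooled. Against 3.32, it was 1.30 with at least 500 UMIs, 1.34 with no mitochondrial limit and 1.22 with doublets kept, where the large N-LKO cluster with most Eda was unnamed and left out, with N-LKO levels of 98.7, 86.2 and 89.3 CPM. With that cluster added back it was 3.00, 3.41 and 3.26 (N-LKO level 320 CPM at 500 UMIs, WT level 34.8 CPM with no mitochondrial limit). It was 3.17 with at least 2000 UMIs (45.0 and 405 CPM in WT and N-LKO), 2.95 with a mitochondrial limit of 10% (81.7 and 636 CPM), 1.35 without Malat1-rich and Malat1-poor clusters (N-LKO 91.2 CPM), 2.22 in the Malat1-rich pair (153 and 718 CPM) and 1.36 in the other pair (N-LKO 91.5 CPM). The WT level was 34.0 CPM with no mitochondrial limit. Subtracting free RNA gave 1.57 (211 and 627 CPM), with 0.862 (WT) and 0.444 (N-LKO) of hepatocyte-like UMIs estimated as free, so the WT value rests on a small remainder. Without mitochondrial UMIs the levels were 47.5 and 448 CPM. Relative to the median of all expressed genes the ratio was 2.93, and relative to genes of similar span 2.24. A resolution of 0.6, the EDA lists left in the clustering, a mean over cells and 1 UMI added kept the ratio within its counting interval. Shares of hepatocyte-like cells with an Eda UMI were 5.94% in WT and 32.2% in N-LKO thinned to 1500 UMIs, and 5.86% and 36.8% unthinned. The share of genes at least 2-fold higher was 26.2% at 1 CPM and 20.8% at 20 CPM. Receptor and adaptor UMIs in named classes were 298, 365 with at least 500 UMIs and 285 with doublets kept, and the background Eda level moved little under 600 UMIs (9.57 and 69.0 CPM). No paired analysis was possible because each group has 1 library, and for the same reason no library could be left out.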

Other observations

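Beside Eda, other TNF superfamily genes were read in hepatocyte-like cells. Of 18 ligands, Eda included, 4 reached 5 CPM in either library, and 2 of these, Eda included, were at least 2-fold higher in N-LKO, against 22.1% of all genes. In the Malat1-rich pair 4 of 6 were, against 17.7%, and in clusters 0 and 5 2 of 4, against 6.6%. Tnfsf13 (APRIL) stood at 2.79 CPM (WT) and 7.07 CPM (N-LKO) (log2 ratio 1.33, 0.77 to 1.92), Tnfsf12 (TWEAK) at 6.18 and 10.7 CPM (0.79, 0.36 to 1.20) and Tnfsf10 (TRAIL) at 7.31 and 7.53 CPM (0.05, -0.41 to 0.49). In clusters 0 and 5 the Tnfsf10 log2 ratio was -0.93 (-1.77 to -0.24). Of 28 receptors, 9 reached 5 CPM and 3 of these, Eda2r included, were at least 2-fold higher in N-LKO, against 22.1% of all genes. In the Malat1-rich pair 4 of 10 were, against 17.7%, and in clusters 0 and 5 1 of 6 was, against 6.6%. Tnfrsf12a, the receptor of TWEAK, stood at 2.50 CPM (WT) and 13.4 CPM (N-LKO) (2.42, 1.91 to 2.97), and Tnfrsf11a, the receptor RANK, at 1.96 and 8.46 CPM (2.10, 1.496 to 2.75). In clusters 0 and 5 the log2 ratio was 2.82 (2.23 to 3.46) for Tnfrsf12a and 0.34 (-0.80 to 1.30) for Tnfrsf11a, and in the Malat1-rich pair, on 1 WT UMI each, 2.17 and 2.72. The macrophage-like level of Tnfrsf11a was higher than its hepatocyte-like level in both libraries, at 84.4 and 131 CPM, and the part of free RNA in the hepatocyte-like values was not tested.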
